A study of Homo sapiens with 12 samples.

Results

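Messenger RNA of 8 genes was described in 2 human cancer cell lines grown in 2D and in 3D. The genes were CP (ceruloplasmin), FGA, FGB and FGG (the chains of fibrinogen), SERPINA1 (alpha-1 antitrypsin), TF (transferrin), APOH (beta-2 glycoprotein I) and A1CF (APOBEC1 complementation factor). They are 8 of the 27968 gene symbols in each deposited table, were found by symbol, and all 8 were among the 15304 genes tested. The genes were chosen by their measured levels in these libraries, above all the higher levels in A549 in 3D, and the MDA-MB-231 results were known then too, so every comparison is given for them as a description, with no p-value. The name of the set holds for 7 of the 8, which encode proteins secreted into plasma, whereas A1CF encodes a nuclear RNA-binding protein.

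Most plasma proteins are made by hepatocytes, whose genes for them are driven by liver-enriched transcription factors such as HNF4A, the FOXA proteins and the C/EBP proteins. Several of them are acute phase proteins, whose synthesis rises in inflammation when IL6 and related cytokines activate STAT3. Ceruloplasmin carries copper and oxidises ferrous iron, transferrin carries ferric iron, fibrinogen is cleaved by thrombin into the fibrin of a clot, beta-2 glycoprotein I binds phospholipids, and alpha-1 antitrypsin inhibits neutrophil elastase. A1CF binds RNA and, with the deaminase APOBEC1, takes part in the editing of apolipoprotein B messenger RNA.

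The libraries fell into 4 groups of 3. The lung cancer line A549 and the breast cancer line MDA-MB-231 were each grown in a Matrigel-based 3D culture, in which cells sit in a basement membrane extract, or in a 2D culture. All groups had DMEM with 10% FBS and no treatment, and RNA was taken on day 4 in 3D and near confluence in 2D. The series was designed to find genes that the extracellular matrix regulates in cancer cells. Each line is a single established line. Nothing in the labels tells if replicate libraries are separate cultures, and the spread behind each p-value may therefore be technical.

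Total expected counts per library ranged from 5609327 to 28171901. Ribosomal RNA made up 3.53 to 16.5% of counts in A549 3D and 0.311 to 0.483% in A549 2D, with 4.01 to 6.50% in the 3D and 1.12 to 1.18% in the 2D libraries of MDA-MB-231. Mean fragment lengths were 133 to 140.0 bases in A549 3D and 175 to 186 bases in A549 2D, with 180.4 to 187 bases in the 3D and 207 to 216 bases in the 2D libraries of MDA-MB-231. These measures move with culture in both lines, and their part in the results was not tested. Most of the markers listed for the lines stood where the labels put them, but EPCAM, KRT19 and SPARC did not. EPCAM and KRT19, listed for A549, averaged 7.63 and 255 TPM in A549 3D and 9.53 and 676 TPM in MDA-MB-231 3D. SPARC, listed for MDA-MB-231, averaged 4.26 TPM in A549 3D and 0.197 TPM in MDA-MB-231 3D. AKR1B10 averaged 3859 TPM or more in both A549 groups and 0.28 TPM or less in MDA-MB-231, and VIM averaged 300.0 and 642 TPM in A549 3D and 2D and 3052 and 2961 TPM in MDA-MB-231 3D and 2D. The 9 alveolar type 2 markers of the lung summed to 6.41 to 12.9 TPM in A549 3D and 8.93 to 10.3 TPM in A549 2D, mostly the lipid transporter ABCA3 at 8.55 TPM in A549 3D and 8.79 TPM in A549 2D, while the surfactant gene SFTPC averaged 0.09 TPM in A549 3D and 0.07 TPM in A549 2D. Of the 4 of these markers that were tested, 2 were higher and 0 lower in A549 3D.

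All 8 genes were higher in A549 3D than in A549 2D. In MDA-MB-231, 7 of them had too few counts in either culture to show a change, and SERPINA1 was higher in 3D there as well. In A549 the libraries of the 3D and 2D groups did not overlap for any of the 8, as was so, with 3D higher, for 32.7% of all genes tested. With an adjusted p under 0.05, 34.1% of all genes tested were higher and 31.5% lower in A549 3D, and 16.5% were higher by at least 2-fold. All 8 are among that 16.5%, which follows from how they were chosen and is read no further. The median log2 fold change was 4.50 over the 8 genes and 0.03 over all genes tested. In bulk RNA, more cells that express a gene and more RNA per cell cannot be told apart. Levels are given as TPM (a transcript share scaled to length) or as CPM (library-scaled counts after TMM), and fold changes come from the CPM scale.

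**Figure D1:**
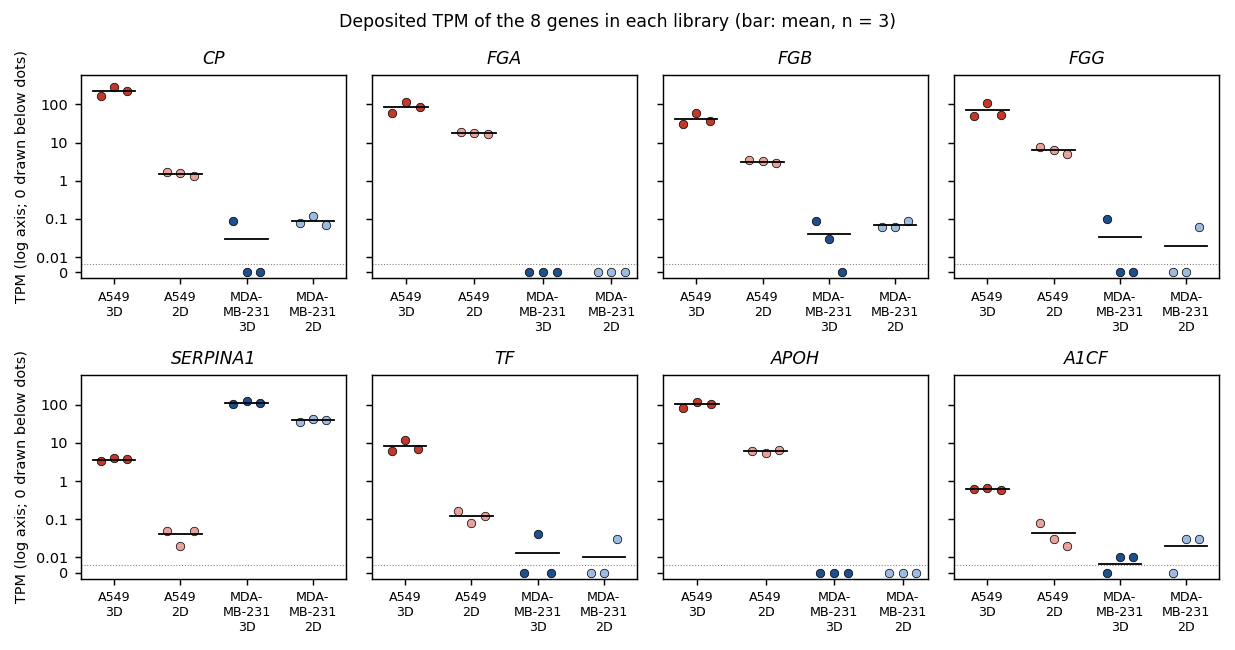
Each panel shows the deposited TPM of 1 gene on a log axis for the 12 libraries, with A549 in red and MDA-MB-231 in blue, 3D left of 2D in each line, and a bar at the mean of 3. The 3 A549 3D points lie above the 3 A549 2D points in every panel, and SERPINA1 is the only panel with MDA-MB-231 points above 1 TPM.

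CP had the largest difference of the 8. It had 168, 290.3 and 228 TPM in the A549 3D libraries, against 1.66, 1.60 and 1.34 TPM in the A549 2D libraries. The groups lay far apart, and replicate 2 was the highest of the 3D libraries. The log2 fold change was 7.72 ± 0.24 (SE), and 1.37% of genes ranked above CP by mean TPM in A549 3D, against 41.3% in A549 2D. In MDA-MB-231, CP was near the limit of detection, with 2 counts over the 3D libraries and 12 over the 2D libraries, 4.23 times lower with a 95% counting interval of 0.942 to 38.9 times lower. The log2 fold change there was -1.91 ± 1.41 (SE). Some CP counts were not whole numbers, so the estimate shares reads with other genes.

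TF, the iron carrier, had a lower level and a smaller fold change than CP. It had 6.03, 11.5 and 7.08 TPM in A549 3D, against 0.16, 0.08 and 0.12 TPM in A549 2D. The 2D level rests on 13 counts in 3 libraries and the 3D level on 838, a ratio of 91.7 with a 95% counting interval of 53.3 to 173. The fitted log2 fold change was 6.62 ± 0.36 (SE). In MDA-MB-231, TF had 1 count over the 3D libraries and 1 over the 2D libraries, so no change could be measured.

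The 3 fibrinogen genes are neighbours on chromosome 4, and their products join into 1 secreted protein with equal numbers of each chain. FGA encodes the alpha chain, which carries fibrinopeptide A. It had 59.2, 113 and 86.0 TPM in A549 3D, against 19.4, 17.5 and 16.6 TPM in A549 2D. FGB encodes the beta chain and had 29.7, 58.5 and 35.6 TPM in A549 3D, against 3.41, 3.23 and 2.84 TPM in A549 2D. FGG encodes the gamma chain and had 48.6, 106 and 53.9 TPM in A549 3D, against 7.54, 6.26 and 5.12 TPM in A549 2D. All 3 chains were thus already present in A549 2D, unlike TF and SERPINA1, which were under 0.2 TPM there. Their log2 fold changes were unequal, at 2.85 ± 0.20 (SE) for FGA, 4.25 ± 0.23 for FGB and 4.02 ± 0.28 for FGG.

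The balance between chains therefore differed by culture. FGA exceeded FGB in TPM by 2.00, 1.94 and 2.42 times in the A549 3D libraries, against 5.68, 5.41 and 5.86 times in the A549 2D libraries. No 3D library came near a 2D library in this ratio. FGA made up 40.7 to 49.0% of the summed TPM of the chains in A549 3D and 63.9 to 67.6% in A549 2D. FGG over FGB was 1.64, 1.82 and 1.52 in A549 3D, against 2.21, 1.94 and 1.80 in A549 2D, and here the ranges of the groups overlapped slightly. The sum of the chains was 137, 278 and 176 TPM in A549 3D, against 30.3, 27.0 and 24.6 TPM in A549 2D. A ratio within a library is free of library scaling, but fragment length moves with culture in these libraries, and its part in the ratio was not tested.

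In MDA-MB-231 the fibrinogen genes were close to 0. FGA had 0 counts in all 6 libraries, which allows up to 0.0617 CPM in 3D and 0.0435 CPM in 2D. With the missing counts set to a floor of 3 per group, FGA was at least 3219-fold higher in A549 3D than in MDA-MB-231 3D, and at least 669-fold higher in A549 2D than in MDA-MB-231 2D. FGB had 3 counts in MDA-MB-231 3D and 7 in its 2D libraries, with a log2 fold change of -0.66 ± 1.65 (SE). FGG had 1 count in each culture.

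**Figure D2:**
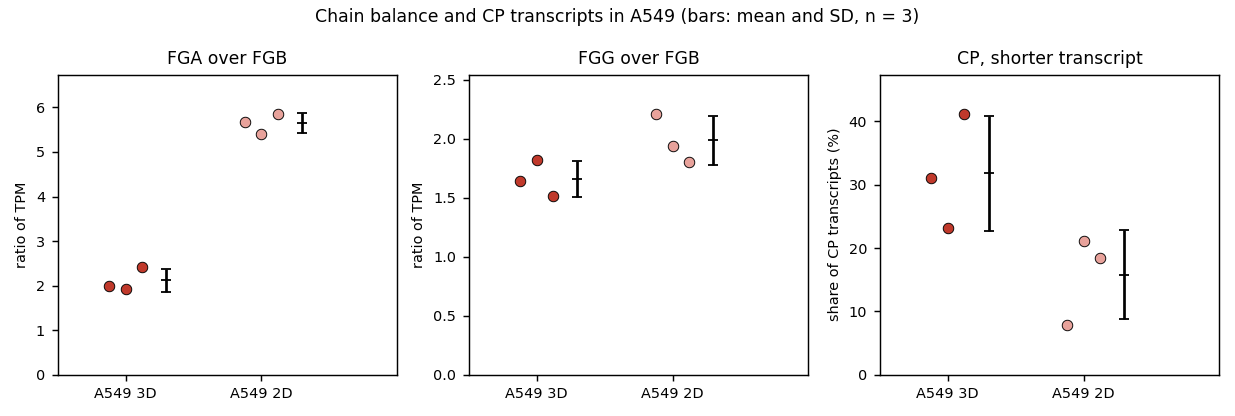
The left and middle panels show the ratio of FGA to FGB and of FGG to FGB in TPM for each A549 library, 3D left of 2D, and the right panel the share of CP transcripts of the shorter length, each with the mean and SD of 3. FGA over FGB lies between 1.94 and 2.42 in 3D and between 5.41 and 5.86 in 2D, whereas the groups of the middle panel overlap.

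APOH was the second most abundant of the 8 genes in A549 3D. It had 82.5, 119 and 106 TPM in A549 3D, against 5.95, 5.48 and 6.50 TPM in A549 2D. The 2D libraries differed little among themselves and all lay far below the 3D libraries. Its log2 fold change was 4.69 ± 0.16 (SE). In MDA-MB-231, APOH had 0 counts in all 6 libraries, so it was at least 1936-fold higher in A549 3D than in MDA-MB-231 3D and at least 109-fold higher in A549 2D than in MDA-MB-231 2D, by the same floor.

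SERPINA1 was the only 1 of the 8 that was abundant in MDA-MB-231. There it had 103, 123 and 111 TPM in the 3D libraries, against 35.8, 41.0 and 39.3 TPM in the 2D libraries. Every 3D library exceeded every 2D library, as was so for 37.2% of all genes tested in this line. In CPM it averaged 205 ± 19.1 in the MDA-MB-231 3D and 52.9 ± 3.35 in the MDA-MB-231 2D libraries (SD, n = 3 each), a log2 fold change of 1.96 ± 0.09 (SE) or 3.88-fold. In MDA-MB-231 3D, 33.4% of all genes tested were higher and 34.2% lower at an adjusted p under 0.05. SERPINA1 was the 1 member among either, which is read no further, since its values in these libraries were known when it was chosen.

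In A549, SERPINA1 started from almost nothing. It had 3.28, 3.99 and 3.68 TPM in A549 3D, against 0.05, 0.02 and 0.05 TPM in A549 2D. The 2D level rests on 5 counts and the 3D level on 485, a ratio of 138 with a 95% counting interval of 58.7 to 427. Its log2 fold change in A549 was 7.01 ± 0.25 (SE), against 1.96 ± 0.09 in MDA-MB-231. Even so, A549 stayed below MDA-MB-231 in both cultures, by a log2 difference of -4.01 ± 0.11 (SE) in 3D and -9.07 ± 0.20 in 2D. The change was larger in the line with the lower level, and the difference between the changes was not tested, since the A549 change helped to choose the gene.

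A1CF had the lowest level of the 8 in A549 3D. It had between 0.60 and 0.65 TPM in A549 3D, against between 0.02 and 0.08 TPM in A549 2D. The counts behind these levels were 235 and 17, a ratio of 19.7 with a 95% counting interval of 12.02 to 34.3, and the fitted log2 fold change was 4.31 ± 0.37 (SE). In MDA-MB-231, A1CF had 2 counts in 3D and 6 in 2D, with a log2 fold change of -0.97 ± 1.06 (SE). APOBEC1 had 0 counts in all 12 libraries, and APOB, the messenger RNA that the pair edits, averaged 0 CPM in A549 3D and 0.0187 CPM in A549 2D. Both were singled out after their values were seen.

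The order of the levels changed between cultures in A549. In A549 3D it was CP, APOH, FGA, FGG, FGB, TF, SERPINA1 and A1CF by mean TPM, and the libraries of neighbouring genes overlapped between APOH and FGB. In A549 2D it was FGA, FGG, APOH, FGB, CP, TF, A1CF and SERPINA1, with overlap between FGG and APOH and among the last 3. CP thus stood first of the 8 in A549 3D and behind 4 others in A549 2D. TPM in A549 is lowered by small structural RNA, which takes part of each library's total. With those genes left out, CP averaged 456 TPM in A549 3D and 2.32 TPM in A549 2D, instead of 229 and 1.53, while the order within a library cannot change.

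The A549 3D libraries varied together. Replicate 2 had the highest CPM for all 8 genes, and replicate 1 the lowest for 7, the exception being A1CF, where replicate 3 was lowest. The highest over the lowest library ranged from 1.20 for A1CF to 2.28 for FGG. Replicate 2 had the fewest counts of all 12 libraries. Without it the log2 fold changes were lower but still 2.57 for FGA, 3.87 for FGB, 3.55 for FGG and 7.44 for CP. The biological coefficient of variation over all genes was 0.179 in A549 3D and 0.0368 in A549 2D.

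Promoter sequences are shown for the 3 fibrinogen genes, which are neighbours. These genes were higher in A549 3D and nearly absent from MDA-MB-231, as was also so for CP, TF, APOH and A1CF. The sequences are RefSeq windows of GRCh38.p14 from 250 bases before to 50 bases after a transcription start, read 5′ to 3′ on the gene's strand. The deposited tables use hg19 and hold no coordinates. Capitals mark the IL6 response element CTGGGAA or its reverse complement TTCCCAG, and the C/EBP pattern TTGCNNAA or its reverse complement TTNNGCAA.
FGA, chr4:154590693-154590992, minus strand: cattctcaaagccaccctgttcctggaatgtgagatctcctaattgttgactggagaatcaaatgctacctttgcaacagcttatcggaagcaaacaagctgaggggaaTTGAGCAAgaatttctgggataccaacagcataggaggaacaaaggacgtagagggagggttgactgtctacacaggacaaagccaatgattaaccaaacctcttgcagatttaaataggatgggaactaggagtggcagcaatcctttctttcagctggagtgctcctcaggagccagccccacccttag
FGB, chr4:154562730-154563029, plus strand: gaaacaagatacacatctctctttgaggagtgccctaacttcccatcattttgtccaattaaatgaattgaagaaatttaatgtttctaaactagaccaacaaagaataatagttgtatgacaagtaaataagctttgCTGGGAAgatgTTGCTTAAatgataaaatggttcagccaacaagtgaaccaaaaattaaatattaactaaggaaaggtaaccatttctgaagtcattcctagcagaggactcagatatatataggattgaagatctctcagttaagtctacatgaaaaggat
FGG, chr4:154612607-154612906, minus strand: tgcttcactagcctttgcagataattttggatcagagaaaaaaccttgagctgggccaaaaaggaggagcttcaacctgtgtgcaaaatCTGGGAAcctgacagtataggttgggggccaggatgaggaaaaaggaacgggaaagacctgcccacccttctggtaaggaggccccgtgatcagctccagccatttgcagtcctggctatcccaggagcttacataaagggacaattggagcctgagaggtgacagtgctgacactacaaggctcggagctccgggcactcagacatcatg

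The IL6 response element was found 112 bases before the start in FGB and 161 in FGG, and in 10.9% of all 35116 windows of this length. The C/EBP pattern, on both strands and without overlap with the other matches, began 141 bases before the start in FGA and 101 in FGB. It was also found in TF, and in 10.5% of all windows. Neither the FOXA pattern TGTTTAC (3.42% of windows) nor the HNF4 pattern CAAAGTCC (1.2%), each searched on both strands, was in any member's window. Both SERPINA1 windows, the APOH window, 1 TF window and the A1CF window held none of the 4 patterns. FGB has 2 overlapping windows that hold the same matches. A match describes letters, and binding was not measured.

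Transcripts of hepatic and endodermal transcription factors were higher in A549 3D for 19 of 27 tested genes and lower for 3. The median log2 fold change of the list was 1.21, against 0.03 over all genes. NR1H4, the bile acid receptor FXR, averaged 9.22 ± 1.35 CPM in A549 3D and 0.0930 ± 0.0856 CPM in A549 2D (SD, n = 3 each). Its log2 fold change was 6.53 ± 0.44 (SE). NR1H4 was near 0 in MDA-MB-231 too, so it passed the filter on low counts only through A549 3D. Its call as higher therefore follows in part from the filter. FOXA3 had a log2 fold change of 2.58 ± 0.18, and DBP, a clock-controlled activator of liver genes, one of 2.71 ± 0.16. FOXA1 rose by 1.86 ± 0.11 in A549 and fell by 5.49 on the log2 scale in MDA-MB-231 3D, with 0.0532 ± 0.0524 CPM there and 3.08 ± 0.50 CPM in MDA-MB-231 2D. In MDA-MB-231 3D, 8 of the 27 were higher and 6 lower.

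Factors well known in liver did not all move that way, and HNF4A and CEBPA were singled out after their values were seen. HNF4A, a nuclear receptor of liver and gut, averaged 33.2 ± 3.36 CPM in A549 3D and 44.9 ± 2.05 CPM in A549 2D, a log2 fold change of -0.41 ± 0.11 (SE, edgeR adjusted p = 0.00489). CEBPA, a C/EBP factor, averaged 18.7 ± 2.65 CPM in A549 3D and 4.65 ± 0.158 CPM in A549 2D, a log2 fold change of 2.04 ± 0.16 (SE, edgeR adjusted p = 2.02e-08). CEBPA averaged 0.0722 ± 0.0839 CPM in MDA-MB-231 3D and 0.1002 ± 0.0629 CPM in MDA-MB-231 2D. HNF4A had 0 counts in MDA-MB-231 3D and averaged 0.0574 ± 0.0664 CPM in MDA-MB-231 2D.

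**Figure D3:**
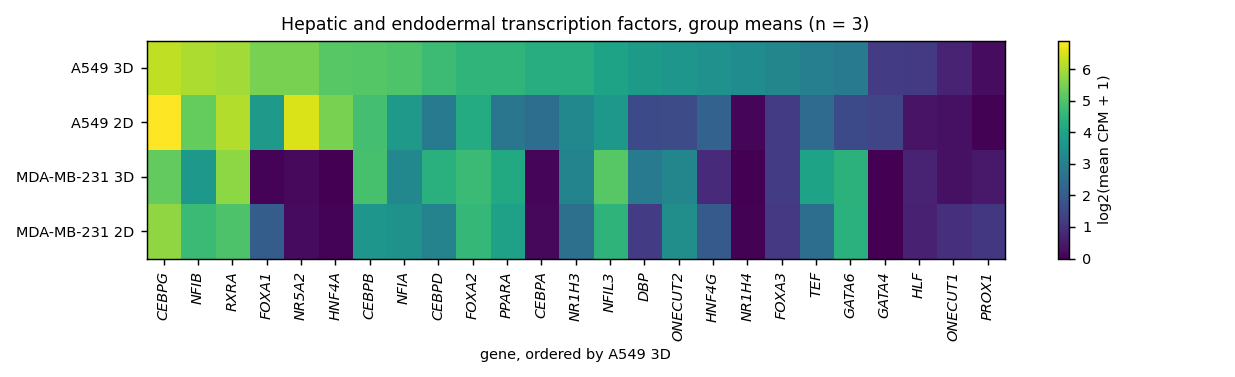
The colour gives log2(mean CPM + 1) over 3 libraries for 25 of the tested hepatic and endodermal transcription factors, ordered by their level in A549 3D, with the 4 groups as rows. HNF4A, NR5A2 and CEBPA are present in both A549 rows and near 0 in both MDA-MB-231 rows, and NR1H4 is present in A549 3D alone of the 4.

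Acute phase plasma proteins were the list with the highest share of large rises in A549 among those of at least 10 tested genes. In A549 3D, 13 of 18 tested genes other than the members were higher, all by at least 2-fold, and 2 were lower, with a median log2 fold change of 2.52. C3, the central complement component, averaged 231.1 ± 64.6 CPM in A549 3D and 14.0 ± 0.364 CPM in A549 2D, a log2 fold change of 4.06 ± 0.17 (SE). CFB, the serine protease of the alternative pathway, had a log2 fold change of 5.31 ± 0.17, and C4BPA, a chain of the C4b-binding protein, one of 5.69 ± 0.25. C4BPB, another chain of that protein, went the other way, with -1.33 ± 0.255 in A549 and -3.03 ± 0.085 in MDA-MB-231. In MDA-MB-231 3D, 9 of the 18 were higher and 2 lower. SAA1, a serum amyloid, averaged 441 ± 17.1 CPM in MDA-MB-231 3D and 49.3 ± 4.06 CPM in MDA-MB-231 2D, with a log2 fold change of 3.16 ± 0.10 and an edgeR adjusted p of 8.65e-12. C3 rose there too, by 2.48 ± 0.15. C4BPA passed the low-count filter only through A549 3D, so its call as higher there follows in part from the filter. With a filter of at least 1 CPM in at least 3 libraries, or with the 6 A549 libraries fitted alone, 1 gene in place of 2 was lower in A549 3D.

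Other liver-made plasma proteins followed in A549 and mostly not in MDA-MB-231. Of 19 tested carriers and related proteins, 13 were higher and 4 lower in A549 3D, and 3 were higher and 4 lower in MDA-MB-231 3D. VTN, the adhesive protein vitronectin, averaged 146 ± 33.5 CPM in A549 3D and 4.37 ± 0.444 CPM in A549 2D, with a log2 fold change of 5.08 ± 0.18 (SE). ITIH2, a heavy chain of inter-alpha-trypsin inhibitor, had one of 6.82 ± 0.28, and IGFBP1, which binds insulin-like growth factors, one of 3.46 ± 0.20. Of 8 tested apolipoproteins, 6 were higher and 1 lower in A549 3D, among them APOE, with a log2 fold change of 2.05 ± 0.26. The 6 include APOD, which also passed the filter only through A549 3D. Of 9 listed genes of the serpin A cluster beside SERPINA1, only SERPINA3, SERPINA5 and SERPINA6 were tested. All 3 were higher in A549 3D, but SERPINA5 and SERPINA6 passed the low-count filter only through that group. Their calls as higher therefore follow in part from the filter. None of the 3 was called in MDA-MB-231, where each averaged 0.771 CPM or less in both cultures. Of 7 tested antiproteases and related genes, 5 were higher and 1 lower in A549 3D, or 3 higher with the A549 libraries fitted alone. Among them SLPI, an elastase inhibitor of mucosal surfaces, averaged 74.0 ± 4.31 CPM in A549 3D and 0.789 ± 0.330 CPM in A549 2D, with an edgeR adjusted p of 3.53e-13.

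Several plasma proteins of the liver were low in both A549 cultures, and these were singled out after their values were seen. In A549 3D, haptoglobin (HP) averaged 0.377 CPM, hemopexin (HPX) 0.353 CPM, C-reactive protein (CRP) 0.0681 CPM and apolipoprotein A1 (APOA1) 0.188 CPM. In A549 2D they averaged 0, 0.0542, 0 and 0.0368 CPM in that order, and all 4 were too low to be tested. Albumin (ALB) averaged 2.53 ± 1.31 CPM in A549 3D and 0.0364 ± 0.0316 CPM in A549 2D, with a log2 fold change of 5.64 ± 0.75 (SE). ALB was near 0 in MDA-MB-231 too and passed the low-count filter only through A549 3D, as did the hepatocyte markers TTR and AHSG. Their calls as higher therefore follow in part from the filter. Of the 12 hepatocyte markers, 5 were tested, and 4 of them were higher and 0 lower in A549 3D. Their summed level ran from 29.2 to 31.5 TPM in A549 3D and from 5.80 to 6.16 TPM in A549 2D. Most of it was CPS1, the urea cycle enzyme, at 25.4 TPM in A549 3D and 5.38 TPM in A549 2D, whereas APOA2 and APOC3 were listed at 0 in both. The part of hepatocyte-like expression in the results was not tested.

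Markers of other cell types were also measured. Of the 7 enterocyte markers, the 2 tested were both higher in A549 3D, and their summed level was 21.9 to 28.2 TPM in A549 3D and 0.57 to 0.85 TPM in A549 2D, mainly the villus gene VIL1 at 17.3 TPM in A549 3D and 0.41 TPM in A549 2D. Of the 5 club and goblet cell markers, the 2 tested were both higher in A549 3D, and their summed level was 7.43 to 11.1 TPM in A549 3D and 0.40 to 0.43 TPM in A549 2D. The mucin MUC5AC averaged 6.19 TPM in A549 3D and 0.37 TPM in A549 2D, and SCGB3A1 and SCGB3A2 were listed at 0 in both. Of the 7 leukocyte markers, 4 were tested, with 3 higher and 0 lower in A549 3D, and their summed level was 17.1 to 30.05 TPM in A549 3D and 5.50 to 6.43 TPM in A549 2D. Most of it was CD14, at 12.4 TPM in A549 3D and 1.88 TPM in A549 2D, and CD68, at 10.2 TPM in A549 3D and 2.89 TPM in A549 2D. PTPRC, a gene of leukocytes in general, averaged 0.00333 TPM in both cultures, and the T cell gene CD3E was listed at 0. The part of these markers in the results was not tested.

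In the clotting system around fibrinogen, more factors were higher than lower in A549 3D. Of 17 tested coagulation factors and inhibitors, 10 were higher and 4 lower in A549 3D, with a median log2 fold change of 1.10, and 5 were higher and 4 lower in MDA-MB-231 3D. Over all genes tested, 34.1% were higher and 31.5% lower in A549 3D. Several of those called higher, among them F5 and SERPINA5, were near 0 in the other groups. They passed the low-count filter only through A549 3D, so their calls follow in part from the filter, and the count is read no further. F5, the cofactor of factor Xa, averaged 11.5 ± 3.37 CPM in A549 3D and had 0 counts in A549 2D, which allows up to 0.0548 CPM. SERPINA5, the protein C inhibitor, averaged 6.48 ± 1.22 CPM in A549 3D and 0.162 ± 0.139 CPM in A549 2D. TFPI2, an inhibitor of plasmin and other proteases, fell by 1.59 on the log2 scale in A549 3D (edgeR adjusted p = 3.6e-10). F2, the prothrombin whose active form cleaves fibrinogen, averaged 4.87 ± 0.711 CPM in A549 3D and 4.38 ± 0.0767 CPM in A549 2D, a log2 fold change of 0.10 ± 0.22 (SE, edgeR adjusted p = 0.765), and was singled out after its values were seen.

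Fibrinolysis, the system that dissolves fibrin, had more genes lower than higher in A549 3D. Of 10 tested genes, 2 were higher and 4 lower in A549 3D, and without replicate 1 of A549 3D or of A549 2D 1 was higher. PLAT, the tissue-type plasminogen activator, averaged 1.40 ± 0.514 CPM in A549 3D and 4.69 ± 0.800 CPM in A549 2D, a log2 fold change of -1.50 ± 0.20 (SE). PLAU, urokinase, averaged 21.0 ± 6.81 CPM in A549 3D and 215 ± 3.24 CPM in A549 2D, a log2 fold change of -3.27 ± 0.15 (SE, edgeR adjusted p = 4.18e-11). In MDA-MB-231 3D, 5 of the 10 were higher and 1 lower, or 2 lower without replicate 1, 2 or 3 of A549 3D. Among 16 tested receptors of fibrinogen and other plasma proteins, 5 were higher and 7 lower in A549 3D and 6 were higher and 3 lower in MDA-MB-231 3D, or 5 lower without replicate 2 of A549 3D.

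Genes of the IL6 pathway moved in both directions. Of 25 tested, 7 were higher and 10 lower in A549 3D, with a median log2 fold change of -0.15, and 9 were higher and 12 lower in MDA-MB-231 3D. SOCS3, a feedback inhibitor that STAT3 induces, averaged 5.65 ± 1.31 CPM in A549 3D and 42.5 ± 2.70 CPM in A549 2D, a log2 fold change of -2.80 ± 0.12 (SE, edgeR adjusted p = 3.37e-11). LIF, a cytokine of the IL6 family, fell by 2.89 on the log2 scale in A549 3D. IL1B, an inflammatory cytokine, averaged 1.56 ± 0.504 CPM in A549 3D and 0.128 ± 0.0348 CPM in A549 2D, with a log2 fold change of 3.75 ± 0.35 (SE, edgeR adjusted p = 1.7e-07). STAT3 averaged 340.0 ± 41.2 CPM in A549 3D and 239.9 ± 5.35 CPM in A549 2D, with a log2 fold change of 0.51 ± 0.08 (SE, edgeR adjusted p = 6.09e-05). The others called higher in A549 3D were BCL3, at 1.93 ± 0.26, and IL6R, OSMR, PIAS3 and IL1R1, at 0.26 to 0.59, and these and STAT3 were named after their values were seen. IL6 itself averaged 85.6 ± 1.59 CPM in MDA-MB-231 3D and 31.9 ± 2.54 CPM in MDA-MB-231 2D, with a log2 fold change of 1.42 ± 0.09 and an edgeR adjusted p of 2.56e-09. It was at 0.0782 ± 0.103 CPM in A549 3D and 0.384 ± 0.0598 CPM in A549 2D.

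**Figure D4:**
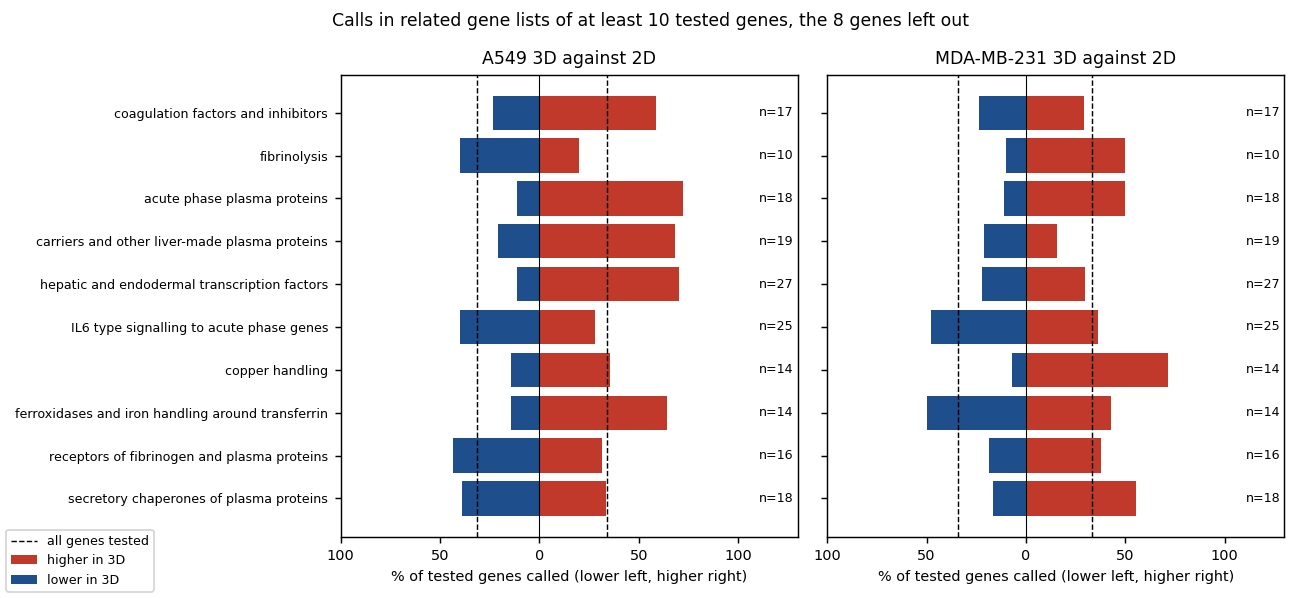
Bars give the percentage of tested genes of each list that were called higher (red, to the right) or lower (blue, to the left) in 3D at an adjusted p under 0.05, for A549 on the left and MDA-MB-231 on the right, with the 8 genes left out. Dashed lines mark all genes tested, 34.1% higher and 31.5% lower in A549 and 33.4% higher and 34.2% lower in MDA-MB-231. Acute phase proteins, carriers, hepatic factors, coagulation and iron genes reach past the dashed line to the right in A549, and copper genes only just past it.

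Around the metal-binding members, iron genes were more often higher than lower in A549. Of 14 tested iron genes, 9 were higher and 2 lower in A549 3D, and 6 were higher and 7 lower in MDA-MB-231 3D. SLC40A1, the iron exporter ferroportin, with which ceruloplasmin works at the cell surface, averaged 208 ± 12.7 CPM in A549 3D and 29.4 ± 1.14 CPM in A549 2D, a log2 fold change of 2.81 ± 0.08 (SE, edgeR adjusted p = 4.03e-13). LCN2, which binds iron-loaded siderophores, rose in both lines, with log2 fold changes of 7.06 ± 0.31 in A549 and 2.47 ± 0.15 in MDA-MB-231. TFRC, the transferrin receptor, averaged 380 ± 92.5 CPM in A549 3D and 435 ± 18.3 CPM in A549 2D, a log2 fold change of -0.20 ± 0.13 (SE, edgeR adjusted p = 0.203), and was singled out after its values were seen. Of 14 tested copper genes, 5 were higher and 2 lower in A549 3D, close to the 34.1% of all genes for the rises, and 10 were higher and 1 lower in MDA-MB-231 3D. ATP7A, a copper pump of the secretory pathway that loads copper enzymes, had a log2 fold change of 1.57 ± 0.09 in A549 (edgeR adjusted p = 4.68e-10).

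Partners of A1CF and chaperones of secreted proteins were not higher as groups in A549 3D. Of 9 tested RNA editing partners, 1 was higher and 5 lower, or 2 higher without replicate 2 of A549 3D. The 1 that rose was RBM47, which can also act with APOBEC1, at 124 ± 14.5 CPM in A549 3D and 55.7 ± 1.13 CPM in A549 2D, a log2 fold change of 1.16 ± 0.09 (SE, edgeR adjusted p = 1.78e-08). Of 18 tested secretory chaperones, 6 were higher and 7 lower in A549 3D and 10 were higher and 3 lower in MDA-MB-231 3D. HSPA5, the chaperone BiP, had a log2 fold change of -0.44 ± 0.08 in A549 and 0.70 ± 0.08 in MDA-MB-231.

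The genes next to the members, in the order of the RefSeq GRCh38.p14 annotation, mostly did not share their size of change in A549. PLRG1, which flanks the fibrinogen genes, had a log2 fold change of -0.44 ± 0.09 (SE), and LRAT on the other side 1.79 ± 1.46 (edgeR adjusted p = 0.296). HPS3 and TM4SF18 beside CP had -0.14 ± 0.08 and 0.70 ± 0.09. TOPBP1 and SRPRB near TF had -0.66 ± 0.07 and 0.70 ± 0.09, and CEP112 and PRKCA beside APOH had -0.17 ± 0.14 and 0.72 ± 0.07. SERPINA6 beside SERPINA1, at 3.60 ± 0.28, AXIN2, the next but one to APOH, at 3.75 ± 0.15, and PRKG1 beside A1CF, at 3.34 ± 1.25, were higher by several fold. PRKG1 averaged only 0.441 CPM in A549 3D, and ASAH2B, on the other side of A1CF, had -0.07 ± 0.11. Other genes in the next but one place were HLTF (0.01 ± 0.09) and TM4SF1 (0.415 ± 0.11) around CP and RAB6B (1.35 ± 0.20) near TF. Around A1CF they were SGMS1 (-0.71 ± 0.11) and CSTF2T (-0.50 ± 0.08). AXIN2 was named after its value was seen, and the genes beside the members by position.

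The estimated share of the shorter CP transcript was higher in each A549 3D library than in any A549 2D library. RSEM's length for a gene is weighted by its transcripts, and the 2 CP transcripts in the tables measure 3629 and 4662 bases. The shorter one made up 31.0, 23.2 and 41.2% in A549 3D, against 7.83, 21.1 and 18.5% in A549 2D. The groups did not overlap in mean weighted length, which was 4333 ± 93.5 bases in A549 3D and 4499 ± 72.6 bases in A549 2D (SD, n = 3 each). The mix of SERPINA1 in MDA-MB-231 had weighted lengths of 3226 ± 0.940 bases in 3D and 3226 ± 5.73 bases in 2D. Depth differs by culture in these estimates, since the CP length in A549 2D rests on 283 counts.

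The genes whose levels followed CP most closely over the 12 libraries were GDA, RARRES1, ANXA13, PLA2G4A and BAMBI. GDA, guanine deaminase, had a Pearson's r of 0.999 on log2(CPM + 1), and its mean was 45.2 CPM in A549 3D and 1.45 CPM in A549 2D. For FGB they were FGL1, TM4SF4, KRT4, AKR1B15 and BCAS1. FGL1, fibrinogen-like 1, averaged 179.6 CPM in A549 3D and 6.75 CPM in A549 2D. These were the highest of 10341 genes compared, 180 of which had an r above 0.95 with CP and 295 with FGB. The 12 points are 4 groups of 3 and share library and depth, so r mostly restates the group means, and by Spearman's rho none of these genes was among the 5 closest.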

How the data were processed

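The data are RNA sequencing of total RNA depleted of ribosomal RNA with a stranded kit, per the labels' protocols. The authors deposited RSEM gene results for 12 libraries, and build hg19, per the submitters' processing notes. The deposited expected counts are estimates that split shared reads, and the deposited TPM values are scaled to length and library total. Not given in the sources used here are RSEM's version, the aligner, the annotation and the use of strand. Reads of overlapping antisense genes may not be separable.

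Expected counts were rounded. Genes were filtered with filterByExpr, which left 15304, scaled with TMM (factors 0.808 to 1.13), and fitted as 4 group means over 12 libraries in edgeR 4.0.16 under R 4.3.3 (quasi-likelihood test), with two-sided tests and Benjamini-Hochberg adjusted p-values over all genes tested (threshold 0.05). No p-value is given for the 8 genes. List genes and markers near 0 in the other groups, such as NR1H4, F5, ITIH2 and ALB, passed the filter only through A549 3D. Their calls as higher in A549 3D follow in part from the filter, and the list counts include them. Groups at 0 counts were set to a floor of 3 counts over the group. Such floors and intervals pool the counts of a group, so they cover only counting error and leave out the spread between libraries. PCR duplicates are no independent molecules, so even the counting error may be understated.

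The 8 genes and 14 related lists (270 distinct symbols, 266 found) were chosen with earlier results of these data known. Named genes were the 8, up to 5 per list with the smallest p in each line, and the 5 genes most like CP and like FGB; a few named genes are not reported here. Alternatives were DESeq2 1.42.0, upper-quartile or RLE scaling, other filters, limma (3.58.1) on log2(TPM + 1), 6 libraries fitted alone, a replicate block, each library left out, a test against a 2-fold change, and small structural RNA genes removed. Sequences are RefSeq windows of GRCh38.p14, with an entry for 7 of the 8 genes.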

Additional observations from a re-analysis of the deposited data

Results flagged for a closer look

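Among the genes of the related lists that the naming rule picked, and no others, a search was made for changes of at least 2-fold in opposite directions in the lines. For 6 of them both changes were called, and the difference between the changes (A549 minus MDA-MB-231) passed edgeR's quasi-likelihood test, which the search also required. A large difference follows from such a choice, so it is given as a description with no p-value. For FOXA1, a pioneer factor of endodermal and luminal cells, the difference was 7.34 ± 0.37 (SE, log2), with changes of 1.86 ± 0.11 in A549 and -5.49 ± 0.38 in MDA-MB-231. TFPI, the inhibitor of tissue factor, differed by 2.68 ± 0.25, with 1.52 ± 0.18 in A549 and -1.16 ± 0.18 in MDA-MB-231. PON3, a lactonase carried on lipoproteins, differed by 3.04 ± 0.27, with 2.00 ± 0.11 in A549 and -1.03 ± 0.26 in MDA-MB-231.

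The opposite pattern was found for THBD, thrombomodulin, which differed by -2.83 ± 0.14, with -1.09 ± 0.10 in A549 and 1.74 ± 0.09 in MDA-MB-231. MT2A, a metallothionein that binds copper and zinc, differed by -2.05 ± 0.21, with -1.05 ± 0.15 in A549 and 1.01 ± 0.14 in MDA-MB-231. IL6 differed by -4.14 ± 0.60, with -2.72 ± 0.63 in A549 and 1.42 ± 0.09 in MDA-MB-231, and its A549 change lost its call without replicate 3 of A549 3D. Each change was shown by 3 libraries against 3. The causes were not tested.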

How the results depend on the processing

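All 8 genes were higher in A549 3D under every alternative run. Without 1 library, the log2 fold change ranged from 7.44 to 7.89 for CP, 2.57 to 3.04 for FGA, 3.55 to 4.21 for FGG and 4.02 to 4.99 for A1CF. On log2(TPM + 1), which understates low genes, it was 6.47 for CP, 3.00 for TF, 2.16 for SERPINA1 and 0.64 for A1CF. SERPINA1 in MDA-MB-231 was at 1.51 on that scale and at 1.89 to 2.03 without 1 library.

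In A549, 10042 genes were called in all, 5222 higher and 4820 lower in 3D, and on log2(TPM + 1) 2290 were higher and 8626 lower. In MDA-MB-231 these were 10352 in all, 5118 higher and 5234 lower, against 2532 higher and 7491 lower. That scale moved the median log2 fold change of all genes to -0.38 in A549 and -0.25 in MDA-MB-231, instead of 0.03 and 0, and the list counts are read relative to it. There, 12 hepatic factors were higher and 7 lower in A549. Against a change beyond 2-fold, 2472 genes were called in A549, 1741 in MDA-MB-231, 2145 for the difference between lines, and 6736 and 5896 between lines in 3D and 2D, in place of 8582 for the difference and 12708 and 12485 between lines. Without 1 library the counts ranged from 9316 to 10630 in A549 and from 9552 to 10959 in MDA-MB-231. Of 1232 list counts under alternatives, 115 moved by over 1.5 times, 51 of them against a change beyond 2-fold and 30 on log2(TPM + 1).

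Same-numbered libraries did not deviate together, with correlations of deviations from -0.034 to 0.061 in A549 and -0.073 to 0.068 in MDA-MB-231. Differently numbered libraries had -0.084 to 0.074 and -0.079 to 0.117 in that order. Such values cannot tell whether same-numbered cultures were set up together. With the number as a replicate block, 9656 genes were called in A549, 10097 in MDA-MB-231 and 8331 for the difference between lines. Depth limits the A549 2D levels of SERPINA1, TF and A1CF, which rest on 5, 13 and 17 counts, and all members but SERPINA1 in MDA-MB-231.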
